A study of Mus musculus with 20 samples.

Results

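The genes described here are 54 genes of the cell division cycle, from the cyclins that open G1 to the motors and scaffolds that separate chromosomes and daughter cells. They were chosen by gene symbol, with 1 probe set per gene, the probe set with the highest mean over the 20 arrays. A probe set with a single matching symbol stood for 53 of the 54, among 18193 genes in all, and Ccnb1 (cyclin B1) was not analysed here. The symbols were listed with earlier results of these data known, but no measured value decided membership.

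All livers were from CD-1 males, and CD-1 is an outbred mouse stock. Phenobarbital sodium (PB) was given orally once a day at 80 mg/kg/day, and control mice were given the vehicle methylcellulose (CMC), which is 0 mg/kg/day of drug. The 4 groups were PB for 28 days, CMC for 28 days, PB for 90 days and CMC for 90 days, with 5 mice and 5 arrays in each. The left lateral lobe was taken a day after dosing ended, and the age of the mice was not given in the sources used here. RNA came from homogenised tissue, in which a larger number of dividing cells and more transcript per dividing cell cannot be told apart.

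A resting adult hepatocyte is out of the cell cycle. When it enters, D-type cyclins with Cdk4 and then E-type cyclins with Cdk2 release E2F factors, which switch on the genes of DNA synthesis, and the FoxM1 and MuvB programme later switches on the genes of G2 and mitosis. Phenobarbital activates the constitutive androstane receptor in hepatocytes and is known in mice as a promoter of liver tumours and as a mitogen whose effect on hepatocyte DNA synthesis is mostly a matter of the early days of dosing. The comparisons ask whether transcripts of the cycle differed between treated and vehicle livers after the longer dosing used here.

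Many, but not all, promoters of these genes hold letters of the motifs searched here. The 3 shown were taken because their genes stood among the mitotic members with the smallest p over both durations. The windows run from 250 bases before to 50 bases after the annotated start (RefSeq, build GRCm38.p6), on the strand of the gene. Capitals mark CCAAT, the box bound by the factor NF-Y, and TTTGAA, the core of the cell cycle genes homology region (CHR) that the MuvB complex binds, each on either strand. The Cdkn3 window lies at chr14:46760291-46760590 on the plus strand, the Ccnb2 window at chr9:70421505-70421804 and the Aurka window at chr2:172370521-172370820, both on the minus strand.
Cdkn3: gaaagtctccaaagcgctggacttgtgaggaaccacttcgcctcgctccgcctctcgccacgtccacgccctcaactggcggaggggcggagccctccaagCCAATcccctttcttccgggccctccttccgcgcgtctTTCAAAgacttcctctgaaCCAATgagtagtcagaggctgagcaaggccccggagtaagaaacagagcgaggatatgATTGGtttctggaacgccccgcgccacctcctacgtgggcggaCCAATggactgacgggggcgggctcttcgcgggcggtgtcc
Ccnb2: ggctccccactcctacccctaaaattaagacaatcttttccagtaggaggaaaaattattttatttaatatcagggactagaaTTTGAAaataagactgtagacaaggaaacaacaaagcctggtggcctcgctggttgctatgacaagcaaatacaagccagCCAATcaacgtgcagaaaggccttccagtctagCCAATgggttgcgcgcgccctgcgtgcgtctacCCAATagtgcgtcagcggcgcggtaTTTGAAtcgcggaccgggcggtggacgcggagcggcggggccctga
Aurka: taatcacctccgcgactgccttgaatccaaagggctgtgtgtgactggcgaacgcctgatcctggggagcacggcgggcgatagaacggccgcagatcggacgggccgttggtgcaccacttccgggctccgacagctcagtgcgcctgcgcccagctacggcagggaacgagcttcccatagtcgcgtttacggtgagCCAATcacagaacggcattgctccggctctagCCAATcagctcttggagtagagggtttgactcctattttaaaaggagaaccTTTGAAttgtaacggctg
The Cdkn3 window held 4 CCAAT and 1 CHR match, the Ccnb2 window 3 and 2, and the Aurka window 2 and 1. Windows were found for 41 of the members (44 windows). Of the 23 windows of G2, mitotic, spindle and cytokinesis members, 16 held TTTGAA or its reverse TTCAAA (69.6%), against 4 of 21 windows of the other members (19.0%) and 17.9% of all 32851 windows. CCAAT or its reverse ATTGG was in 19 of 23 (82.6%), in 14 of 21 (66.7%) and in 37.4% of all windows. The E2F-type letters GCGGGAA or TTCCCGC showed the opposite order, with 1 of 23 mitotic windows (4.35%), 6 of 21 of the others (28.6%) and 4.60% of all. Motifs of different kinds may share bases at their ends, and each kind was searched on its own. A match is a stretch of letters and not a measured binding site.

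Values are RMA intensities on the log2 scale. A change is a difference of group means on that scale, PB minus CMC unless another pair is named, and ± gives its standard error in the limma model. Of the 53 measured members, 49 passed the filter on dim genes, which asked for a value above the array's own 25th percentile (3.96 to 4.26, taken here as background) on at least 5 arrays. The other 4, Cdc6 (licensing of replication origins), Tyms (thymidylate synthase), Bub1 (spindle checkpoint kinase) and Aurkb (Aurora B kinase), lay at or below background on 20 of 20 arrays and were not tested. Of the 49, 40 lay above background on all 20 arrays and 9 on fewer, down to 7 arrays for Pbk. The mean of 10 members was within 0.5 log2 units of background, 20.4% of the members against 13.8% of the 16054 genes tested. All 10 were genes of G2, mitosis, spindle or cytokinesis: Ccnb2, Cdc25c, Ube2c, Plk4, Pbk, Melk, Birc5, Cenpe, Cenpf and Kif20a. Changes of members this dim are compressed by RMA and may be too small.

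Hepatocyte markers checked the labelled tissue: Alb, Apoa1, Ttr, Cps1 and Cyp2e1 stood at or above the 98.9th percentile of genes on each of the 20 arrays, and Hnf4a and Tat at or above the 90.0th and the 89.1th. Treatment was visible in Cyp2b10, the standard target of the receptor, with 11.68, 11.65, 10.81, 11.49 and 9.03 in PB livers against 6.99, 4.89, 5.85, 7.78 and 4.66 in CMC livers at 28 days, and 11.93, 11.86, 10.54, 11.96 and 12.23 in PB livers against 7.76, 4.98, 5.31, 5.66 and 5.37 in CMC livers at 90 days. The arrays of PB 28 days mouse 5 and PB 90 days mouse 3 stood apart, with scores of -107.9 and -65.2 on the first principal component (55.6% of the variance) and -39.8 to 44.2 for the other 18. On both arrays the mean of 7 hepatocyte markers was below the other 18 arrays (12.94 and 13.47, against 13.67 to 14.26), and the means of 9 T and NK cell markers (5.66 and 5.33, against 4.63 to 5.22) and of 6 B and plasma cell markers (6.84 and 6.81, against 6.27 to 6.70) were above them. The other 18 arrays enclosed the Kupffer cell and macrophage, neutrophil, erythroid, endothelial and stellate cell markers of both arrays, and the cholangiocyte mean was lowest on PB 28 days mouse 5 (4.56, against 4.67 to 5.13). Values without these 2 arrays stand beside many of the results that they move.

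No cell cycle gene was called at either duration. At 28 days limma gave 0 of 49 members with an adjusted p under 0.05, where 0.0498% of all 16054 genes were called. At an unadjusted p under 0.05 there were 2 members (4.08%), beside 2.86% of all genes. Mki67 was the 1 higher (1.83% of all genes were higher) and Cdk2 the 1 lower (1.03% of all genes were lower). Leaving out the 2 arrays, 0 members were called (0.0685% of all genes), and the same 2 had an unadjusted p under 0.05 (4.07% of all genes). At 90 days the members called were again 0, beside 0.143% of all genes. Pbk, Aurka and Nusap1 were higher at an unadjusted p under 0.05 (6.12% of members, beside 4.53% of all genes, 3.15% higher and 1.38% lower), and 0 members were lower. With 18 arrays 0 were called (0.174% of all genes), and Pbk alone had an unadjusted p under 0.05 (4.15% of all genes). Pbk is counted here although it passed the filter through treated livers, where it is high, and its p is only a description. No tested member separated treated from vehicle livers completely at 28 days, as 0.542% of all genes did, or at 90 days, as 1.07% did. The median change of the members was 0.05 log2 units at 28 days and 0.11 at 90 days, beside 0.00 and 0.03 for all genes. These medians without the 2 arrays were 0.00 and 0.05, with 0.02 and 0.01 for all genes.

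The intervals give the range of change that the values allow for each gene taken singly, without adjustment for the number of genes. The 95% interval of the change had a median half-width of 0.33 log2 units at both durations. It lay within 1 log2 unit of 0 on both sides for 45 of 49 members at 28 days and for 45 at 90 days, and within 0.5 log2 units for 27 and 24. The widest intervals belonged to Myc, E2f8, Ccnd2 and Ccne2, which varied most among mice of the same group. The interval covered 0 for 47 of 49 members at 28 days and for 46 at 90 days. For these members a change inside the interval could not be told from 0 with 5 mice a group.

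**Figure D1:**
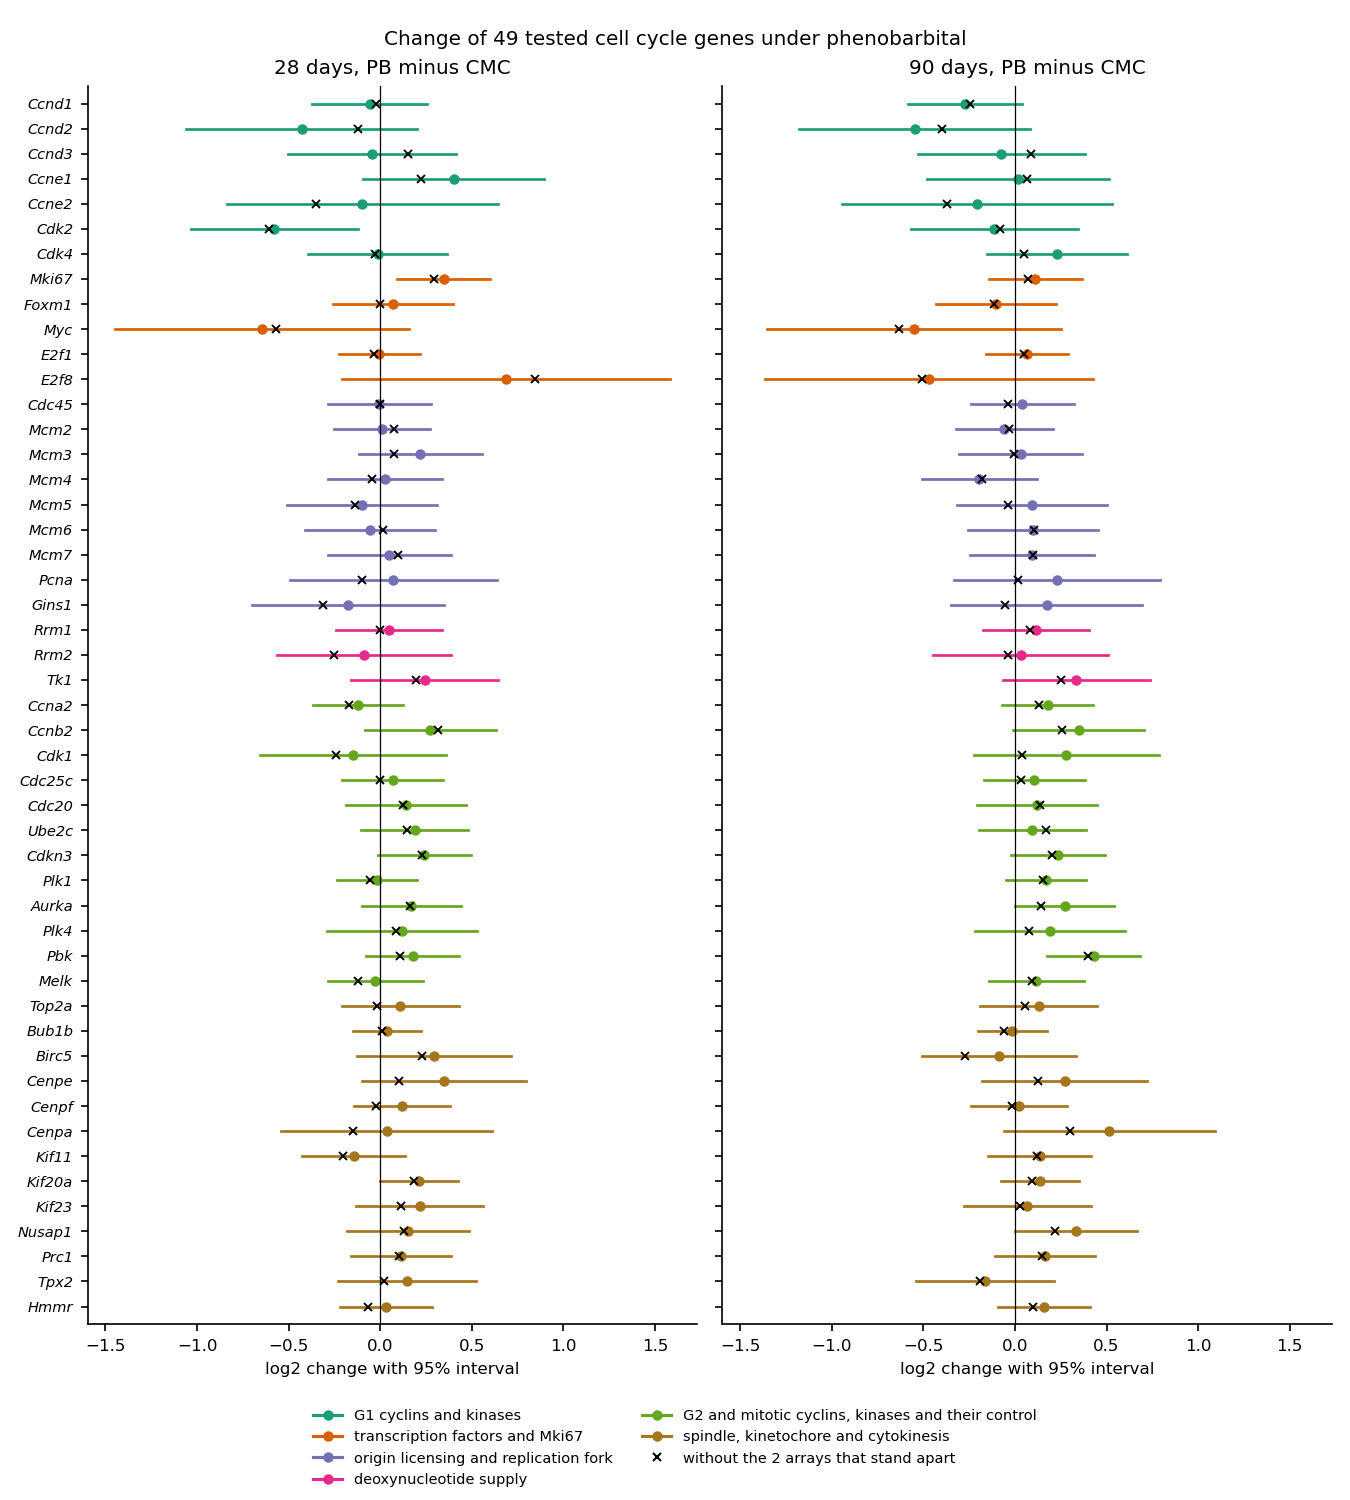
Change of each of the 49 tested cell cycle genes, PB minus CMC, in log2 units at 28 days (left) and 90 days (right), with points for the estimate, lines for the 95% interval of the limma model and colours for the role of the gene. Crosses give the estimate without the arrays of PB 28 days mouse 5 and PB 90 days mouse 3; nearly all lines cross 0 (47 of 49 at 28 days and 46 of 49 at 90 days).

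Among the G1 cyclins and kinases, which carry the cell from rest to the decision to replicate, 6 of 7 values were negative at 28 days and 5 of 7 at 90 days, with 0 called. On 18 arrays, without the 2 that stood apart, 5 and 4 of the 7 were negative. Ccnd1 (cyclin D1, the main D-type cyclin of hepatocytes) was at 7.21, 7.22, 7.02, 6.98 and 6.93 in PB livers and 7.05, 7.20, 7.40, 7.13 and 6.85 in CMC livers at 28 days. After 90 days it was at 6.96, 7.10, 6.99, 6.99 and 7.50 in PB livers and 7.49, 7.07, 7.33, 7.78 and 7.23 in CMC livers. The groups overlapped both times, and at 90 days 3 of 5 treated livers lay below all vehicle livers. The change was -0.06 ± 0.15 at 28 days and -0.27 ± 0.15 at 90 days (adjusted p = 0.816), and without CMC 90 days mouse 4 the 90-day change was -0.17. The other 2 of its 3 probe sets gave larger changes at 90 days, -0.65 ± 0.23 and -0.81 ± 0.31, with 0 called when all probe sets were tested singly (adjusted p = 0.843 for each). All 3 were negative at both durations.

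Cdk2, the partner of cyclin E at the start of S phase, had 7.16, 5.62, 6.66, 6.79 and 6.71 in PB livers at 28 days, against 6.96, 7.11, 7.17, 7.31 and 7.28 in CMC livers. Of the 5 treated livers 4 lay below all vehicle livers, and mouse 2 lay far below the rest. The change of -0.58 ± 0.22 (unadjusted p = 0.0156) was not called over all genes, and without PB 28 days mouse 2 it was -0.33. At 90 days the PB livers were at 7.45, 7.32, 7.20, 7.08 and 7.50, inside the range of the CMC livers at 7.17, 7.89, 7.65, 7.04 and 7.37 (-0.11 ± 0.22). Ccnd2 (cyclin D2) gave -0.43 ± 0.30 and -0.55 ± 0.30, with PB 28 days mouse 5 at 5.66, the lowest of the 20, and the other treated livers of that group at 6.83 to 7.41. Without the 2 arrays it was -0.12 at 28 days and -0.40 at 90 days. Ccne1 (cyclin E1) gave 0.40 ± 0.24 at 28 days and 0.02 at 90 days, which were 0.22 and 0.06 without the 2 arrays. Cdk4, the partner of D cyclins, gave -0.01 and 0.23, which were -0.03 and 0.05 without them.

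Mki67, whose protein Ki-67 coats mitotic chromosomes and marks cycling cells, was the member with the smallest p at 28 days. It was at 4.61, 4.87, 5.01, 4.80 and 5.09 in PB livers, against 4.82, 4.52, 4.29, 4.34 and 4.68 in CMC livers, so that 3 livers under PB exceeded the highest vehicle value. The change was 0.35 ± 0.12, or 1.27-fold (95% interval 0.09 to 0.60, unadjusted p = 0.0102), and 0.29 without the 2 arrays (unadjusted p = 0.0312). At 90 days the PB livers were at 4.58, 4.62, 4.88, 4.51 and 5.02 and the CMC livers at 4.64, 4.54, 4.58, 4.54 and 4.76, a change of 0.11 ± 0.12, and 0.07 without the 2 arrays. The effect at 90 days differed from that at 28 days by -0.24 ± 0.17, which was not called. Its mean lay 0.63 log2 units above background, on a single probe set.

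Of the transcription factors, Myc, which drives growth and entry into the cycle, was lower on average in treated livers at both durations without being called. In PB livers at 28 days it was at 5.68, 5.67, 5.80, 5.46 and 5.27, against 6.20, 6.92, 6.64, 5.82 and 5.51 in CMC livers. Of 5 vehicle livers 4 lay above all treated livers, and the fifth lay among them (-0.64 ± 0.38). After 90 days it was at 6.64, 5.17, 6.27, 5.92 and 5.66 in PB livers and 6.27, 5.35, 5.65, 7.68 and 7.46 in CMC livers (-0.55 ± 0.38), where CMC mice 4 and 5 lay above all other arrays. Without 1 mouse the change at 90 days was -0.25 (CMC mouse 4), -0.31 (CMC mouse 5), -0.36 (PB mouse 2) or -0.83 (CMC mouse 2). E2f8, a repressor of E2F targets that acts in polyploid hepatocytes, had 7.03, 5.37, 6.07, 6.75 and 5.49 in PB livers and 5.61, 5.37, 4.48, 5.50 and 6.33 in CMC livers at 28 days (0.68 ± 0.43). After 90 days the PB livers had 7.26, 4.78, 6.01, 5.67 and 5.54, and the CMC livers 6.55, 5.58, 5.73, 7.21 and 6.54 (-0.47 ± 0.43). The groups overlapped widely both times. The difference between these effects was -1.16 ± 0.61 (unadjusted p = 0.0713), and -1.36 without the 2 arrays (unadjusted p = 0.0488, adjusted p = 0.976). Foxm1, which drives the mitotic genes, gave 0.07 ± 0.16 (0.00 without the 2 arrays) and -0.10 ± 0.16, and E2f1, which drives S-phase genes, -0.00 ± 0.11 and 0.07 ± 0.11.

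**Figure D2:**
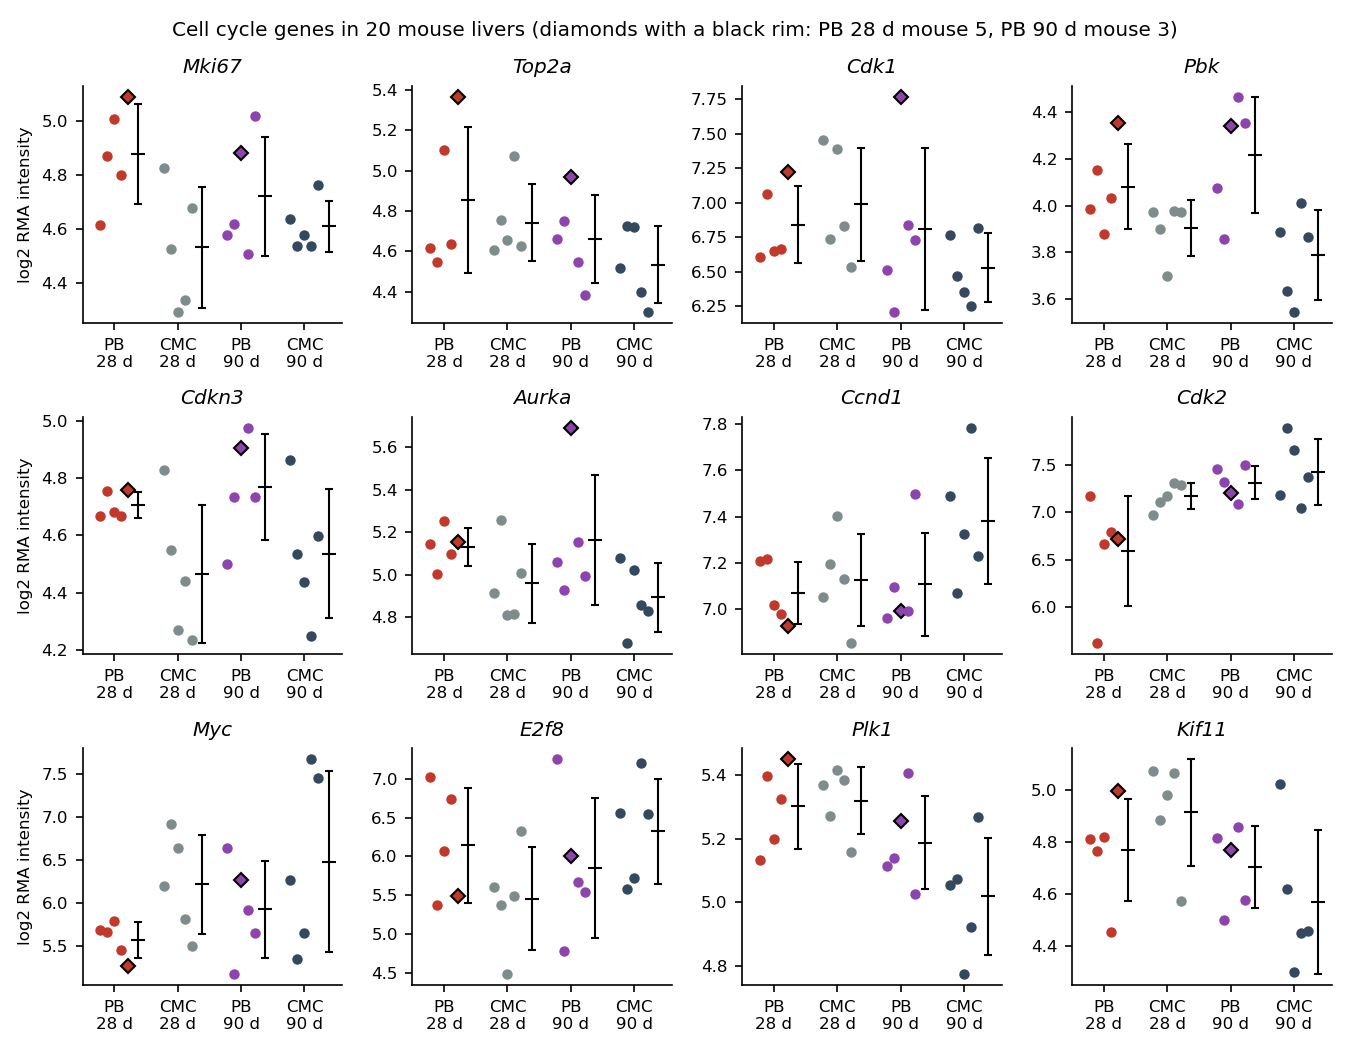
log2 RMA intensity of 12 cell cycle genes in each of the 20 livers, by group, with the mean and SD (n = 5) beside the points and black-rimmed diamonds for PB 28 days mouse 5 and PB 90 days mouse 3. Treated and vehicle livers overlap in each panel, with 4 of 5 PB livers above the highest CMC liver for Pbk at 90 days and 3 of 5 for Mki67 at 28 days. For Pbk most CMC livers were not above background.

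The genes of DNA synthesis had small changes of both signs. Of 9 tested members of origin licensing and the replication fork, among them the 6 helicase subunits Mcm2 to Mcm7 and Pcna, the sliding clamp, 5 were positive at 28 days and 7 at 90 days, with 0 at an unadjusted p under 0.05 at either. Without the 2 arrays 4 and 3 of the 9 were positive, and the median at 90 days was -0.03, against 0.09 with them, so the majority at 90 days turned. Their changes ran from -0.17 to 0.22 at 28 days and from -0.19 to 0.23 at 90 days. Pcna had 9.92, 10.26, 10.06, 9.96 and 10.92 in PB livers against 10.36, 9.56, 10.78, 10.38 and 9.68 in CMC livers at 28 days (0.07 ± 0.27, and -0.10 without the 2 arrays). At 90 days it had 9.85, 9.28, 10.80, 10.12 and 9.64 in PB livers against 9.85, 9.40, 9.85, 9.69 and 9.77 in CMC livers (0.23 ± 0.27, and 0.01 without the 2 arrays). The 2 arrays that stood apart, at 10.92 and 10.80, held the highest Pcna values of the 20. Of the enzymes that supply deoxynucleotides, Tk1 (thymidine kinase) gave 0.24 ± 0.19 and 0.33 ± 0.19, Rrm1 (the large subunit of ribonucleotide reductase) 0.05 and 0.12, and Rrm2 (its small subunit) -0.09 and 0.03. At 28 days Rrm1 was -0.0021 and Rrm2 -0.25 without the 2 arrays, and at 90 days Rrm2 was -0.04.

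Most members of G2 and mitosis had small positive values, and none was called. Of 12 tested cyclins, kinases and regulators of G2 and mitosis, 8 were positive at 28 days and 12 at 90 days, with medians of 0.13 and 0.18 log2 units, and of 13 spindle, kinetochore and cytokinesis genes 12 and 10, with medians of 0.12 and 0.13. Over all genes 49.6% were positive at 28 days and 56.2% at 90 days. None of the 25 was called at either duration (adjusted p from 0.546 upwards). The 10 members within 0.5 log2 units of background were all among these 25, so role and dimness were not separated here. At an unadjusted p under 0.05 there were 0 at 28 days, beside 2.86% of all genes. At 90 days there were 3, Pbk among them, beside 4.53% of all genes. Without the 2 arrays the median of the 25 was 0.09 at 28 days and 0.12 at 90 days, against 0.12 and 0.16 with them, and 16 and 21 were positive, against 20 and 22. Of the 13 spindle, kinetochore and cytokinesis genes 8 and 9 were then positive. T and NK cell markers lay the same way: of 8 tested, 7 were positive at 28 days (median 0.14) and 8 at 90 days (median 0.25), and without the 2 arrays 4 (median -0.01) and 7 (median 0.17). The mean of 8 neutrophil markers did not overlap at 28 days (5.81 to 6.27 in PB livers against 5.18 to 5.50 in CMC livers), and its median at 90 days was 5.85 in PB livers against 5.01 in CMC livers. Of these 8, S100a8 gave 5.06 ± 1.13 at 28 days and 6.28 ± 1.13 at 90 days (called at 90 days), and S100a9 gave -0.15 and -0.01. Only S100a8 separated the groups at 28 days, and each of the other neutrophil markers overlapped between PB and CMC livers. The separation of the mean is therefore not shown by the list as a whole. The Kupffer cell and macrophage mean had a lower median in PB livers at 90 days (6.96, against 7.59 in CMC livers). At 28 days its medians were 8.03 and 8.06. The part of these cell types in the mitotic values was not tested.

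Pbk, a mitotic kinase, had the smallest p of all members at 90 days. It was at 4.07, 3.86, 4.34, 4.47 and 4.35 in PB livers, against 3.89, 3.63, 3.54, 4.01 and 3.87 in CMC livers. Mouse 2 lay among the vehicle livers, and the other 4 PB livers lay above them. Pbk was above background on 4 of 5 PB arrays and 1 of 5 CMC arrays at 90 days, and on 2 and 0 at 28 days. It passed the filter through treated livers, where it is high, and its level in most vehicle livers is only bounded by background. The measured difference at 90 days was 0.43 ± 0.12 (unadjusted p = 0.00203, adjusted p = 0.546), which is given as a description for that reason. It was 0.18 ± 0.12 at 28 days, and without the 2 arrays 0.40 and 0.11 at 90 and 28 days.

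Aurka (Aurora A kinase of the spindle poles) and Nusap1 (a microtubule-bundling protein) were the other members at an unadjusted p under 0.05 at 90 days, and both were highest of the 20 arrays in PB 90 days mouse 3. Aurka was at 5.06, 4.93, 5.69, 5.15 and 5.00 in PB livers against 5.08, 4.68, 5.02, 4.86 and 4.83 in CMC livers (0.27 ± 0.13, and 0.14 without the 2 arrays). Nusap1 was at 4.53, 4.60, 5.21, 4.23 and 5.11 in PB livers against 4.74, 4.09, 4.47, 4.37 and 4.33 in CMC livers (0.33 ± 0.16, and 0.22 without them). Cdkn3, a phosphatase that acts on Cdk1 and Cdk2, had at 28 days 4.67, 4.75, 4.68, 4.67 and 4.76 in PB livers, the narrowest of its groups, against 4.83, 4.55, 4.27, 4.44 and 4.23 in CMC livers (0.24 ± 0.12). At 90 days it had 4.50, 4.74, 4.91, 4.98 and 4.74 in PB livers against 4.87, 4.54, 4.44, 4.25 and 4.60 in CMC livers (0.23 ± 0.12). At 28 days CMC mouse 1 lay above the 5 PB livers and the other 4 CMC livers below them, while at 90 days the groups overlapped more widely.

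Cdk1, the kinase that starts mitosis, and Top2a, the topoisomerase that untangles chromosomes, had changes smaller than or close to their standard errors. Cdk1 was at 6.61, 7.06, 6.65, 6.67 and 7.22 in PB livers against 7.46, 6.74, 7.39, 6.83 and 6.54 in CMC livers at 28 days (-0.15 ± 0.24). After 90 days it was at 6.51, 6.21, 7.77, 6.84 and 6.73 in PB livers against 6.77, 6.47, 6.35, 6.25 and 6.82 in CMC livers (0.28 ± 0.24), where PB mouse 3 was the highest of all 20. Top2a was at 4.62, 4.55, 5.10, 4.63 and 5.37 in PB livers against 4.61, 4.76, 4.65, 5.07 and 4.63 in CMC livers at 28 days (0.11 ± 0.15), with PB mouse 5 highest. At 90 days it was at 4.66, 4.75, 4.97, 4.55 and 4.38 in PB livers against 4.52, 4.73, 4.72, 4.40 and 4.30 in CMC livers (0.13 ± 0.15). The change of Cdk1 at 90 days was 0.43 without PB mouse 2. The changes without the 2 arrays were -0.24 and 0.04 for Cdk1 and -0.02 and 0.05 for Top2a. The kinesin Kif20a, which acts in cytokinesis, was at 4.56, 4.32, 4.27, 4.33 and 4.51 in PB livers against 4.24, 4.15, 3.92, 4.46 and 4.17 in CMC livers at 28 days (0.21 ± 0.10, unadjusted p = 0.0531). After 90 days the PB livers were at 4.32, 4.08, 4.40, 4.20 and 4.12 and the CMC livers at 4.19, 4.05, 3.86, 4.10 and 4.24 (0.14 ± 0.10). The groups overlapped at both durations. Of the remaining spindle genes, Cenpa (the histone of centromeres) gave the highest change at 90 days, 0.51 ± 0.28 against 0.30 without the 2 arrays, and Birc5 (survivin, of the chromosomal passenger complex) gave 0.30 ± 0.20 and -0.09 ± 0.20, and -0.28 at 90 days without the 2 arrays. Birc5 was above background on 4 of 5 PB arrays and 1 of 5 CMC arrays at 28 days.

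With both durations averaged, where the standard error is smaller, 0 of 49 members were called, beside 0.212% of all genes. At an unadjusted p under 0.05 there were 11 members (22.4%), beside 6.6% of all genes. They were 8 higher (4.24% of all genes) and 3 lower (2.37% of all genes). The 8 were Pbk (0.30 ± 0.09, adjusted p = 0.395, against vehicle livers mostly not above background), Cdkn3 (0.24), Mki67 (0.23), the mitotic cyclin Ccnb2 (0.31), Aurka (0.22), Kif20a (0.17), Nusap1 (0.24) and Tk1 (0.29), and the 3 were Ccnd2 (-0.49, and -0.26 without the 2 arrays), Cdk2 (-0.35) and Myc (-0.60). Without the 2 arrays 3 of the 11 remained below that p, Pbk (0.25), Cdkn3 (0.21) and Ccnb2 (0.29), and 0 others joined them. That was 6.12% of members, beside 5.46% of all genes, and 0 were called, beside 0.255%. Pbk is counted in that share although it passed the filter through treated livers, and its p is only a description. Ccnb2 was also dim, with a mean 0.25 log2 units above background. It was above background on 4 of 5 PB arrays and 3 of 5 CMC arrays at 28 days. At 90 days the counts were 5 and 4. The size of the change was smaller without the 2 arrays in 9 of the 11, all but Cdk2 and Myc.

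The 2 arrays lay high for many of these genes. PB 28 days mouse 5 and PB 90 days mouse 3 also had the highest 25th percentiles of intensity (4.26 and 4.12, with CMC 28 days mouse 1 next at 4.11). Their 75th percentiles were the lowest (6.62 and 6.81, with CMC 28 days mouse 1 next at 6.87). Of 49 members, 13 were highest on PB 28 days mouse 5 and 11 on PB 90 days mouse 3, together 49.0%, beside 36.3% of all tested genes. Among the 25 mitotic members it was 15 (60.0%) and among the other 24 it was 9 (37.5%). Only 2 members had their lowest value on either array, Ccnd2 and Ccnd3 (both D-type cyclins) on PB 28 days mouse 5, while 30.4% of all genes had theirs there. Cenpe, the kinetochore motor that aligns chromosomes, reached 5.58 in PB 28 days mouse 5, against 4.15 to 4.47 in the other 4 treated livers of that group, and its change at 28 days was 0.35 ± 0.22 with that array and 0.10 without the 2. The part of lymphocyte RNA, of the lower hepatocyte markers and of the narrower range of intensities on these arrays in the cell cycle values was not tested.

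**Figure D3:**
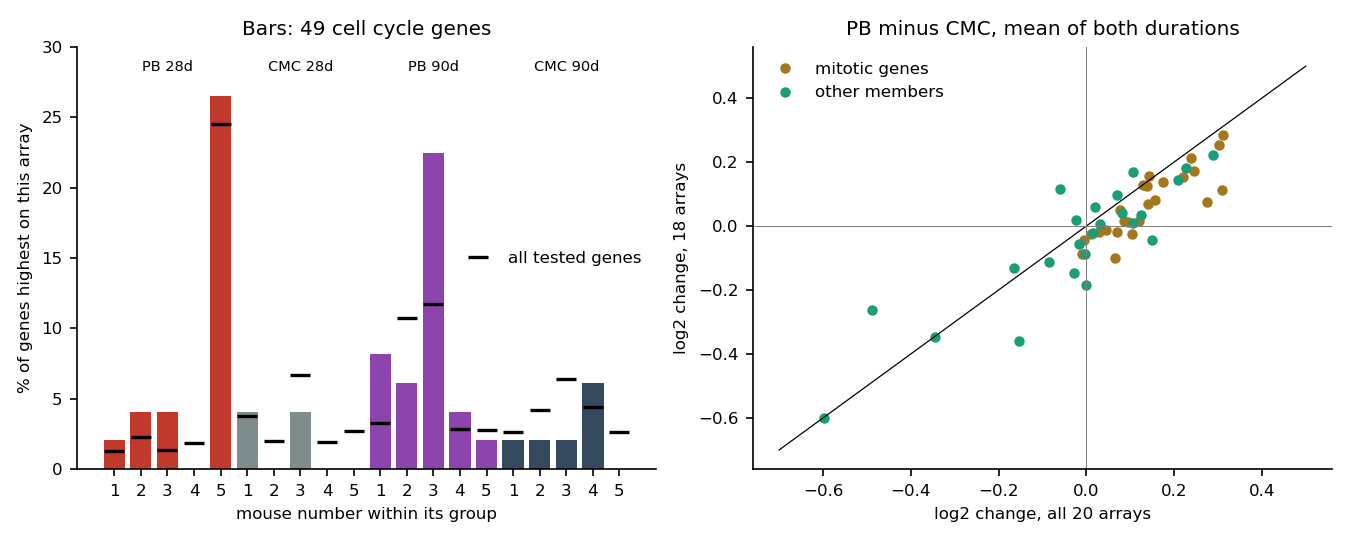
Left, the percentage of the 49 cell cycle genes (bars) and of all 16054 tested genes (black dashes) that had their highest value of 20 on each array; PB 28 days mouse 5 held 13 and PB 90 days mouse 3 held 11 of the 49. Right, the PB minus CMC change averaged over both durations with all 20 arrays (horizontal, log2) and without these 2 (vertical, log2), where most points lie nearer 0 on the vertical axis.

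Duration was compared within each treatment. Between PB livers at 90 and at 28 days 0 members were called, beside 0.00623% of all genes, and 1 member (2.04%) had an unadjusted p under 0.05, beside 4.23% of all genes (1.96% higher and 2.27% lower). This was Cdk2 at 0.72 ± 0.22, higher at 90 days, with 7.08 to 7.50 against 5.62 to 7.16 at 28 days (unadjusted p = 0.00358, adjusted p = 0.971). The ranges overlapped through mouse 1 of the 28-day group, and without mouse 2 of that group, at 5.62, the change was 0.48. Without the 2 arrays 0 members were called (0.0125% of all genes) and Cdk2 was still the only one at an unadjusted p under 0.05 (3.86% of all genes). Bub1b, a kinase-like protein of the spindle checkpoint, had 4.82, 4.76, 5.06, 4.80 and 5.00 in PB livers at 90 days and 4.99, 5.10, 4.94, 5.07 and 5.15 at 28 days (-0.16 ± 0.09). Tpx2, which activates Aurka at the spindle, had 4.65, 5.13, 5.31, 5.13 and 5.75 at 90 days and 5.37, 5.53, 5.41, 5.20 and 6.01 at 28 days (-0.31 ± 0.18). Without mouse 1 of the 90-day group the Tpx2 change was -0.18, and without mouse 5 of the 28-day group -0.19. Both genes overlapped between durations, and 0 members did not, beside 0.635% of all genes.

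Between CMC livers at 90 and at 28 days 0 members were called, beside 0% of all genes, and 2 (4.08%) had an unadjusted p under 0.05, both lower, beside 5.69% of all genes (2.03% higher and 3.66% lower). Plk1, a kinase of mitotic entry, was at 5.05, 5.07, 4.77, 4.92 and 5.27 in CMC livers at 90 days and 5.37, 5.27, 5.42, 5.38 and 5.16 at 28 days (-0.30 ± 0.10). Kif11, the kinesin that pushes spindle poles apart, was at 5.02, 4.62, 4.30, 4.45 and 4.46 at 90 days and 5.07, 4.88, 4.98, 5.06 and 4.57 at 28 days (-0.34 ± 0.13). In both genes the ranges overlapped, and 0 members had ranges that did not, beside 2.33% of all genes. Leaving the 2 PB arrays out of the fit, which changes only the estimate of the spread here, gave 6 members at an unadjusted p under 0.05 (12.2%, beside 17.5% of all genes). Cdk1, Plk1, Pcna and Kif11 were lower and Ccnd3 and Birc5 higher, with 0 called, beside 0% of all genes. Birc5 was above background on 1 of 5 CMC arrays at 28 days and on 5 of 5 at 90 days. Its 28-day level is thus mostly only bounded by background. E2f8 gave 0.86 ± 0.43 (unadjusted p = 0.0575).

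The PB effect at 90 days minus that at 28 days was called for 0 members, beside 0% of all genes, and 0 had an unadjusted p under 0.05, beside 1.38% of all genes (0.928% higher and 0.448% lower). Without the 2 arrays E2f8 was the only one (2.04%, beside 2.62% of all genes). Ccna2 (cyclin A2, of S phase and G2) had the next smallest p, with 5.33, 5.15, 5.25, 5.39 and 5.51 in PB livers and 5.39, 5.35, 5.80, 5.17 and 5.52 in CMC livers at 28 days. After 90 days the PB livers had 5.55, 5.29, 5.60, 5.26 and 5.37 and the CMC livers 5.29, 5.03, 5.13, 5.45 and 5.29. The change was -0.12 ± 0.12 at 28 days and 0.18 ± 0.12 at 90 days, a difference of 0.30 ± 0.17, and the groups overlapped both times.

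**Figure D4:**
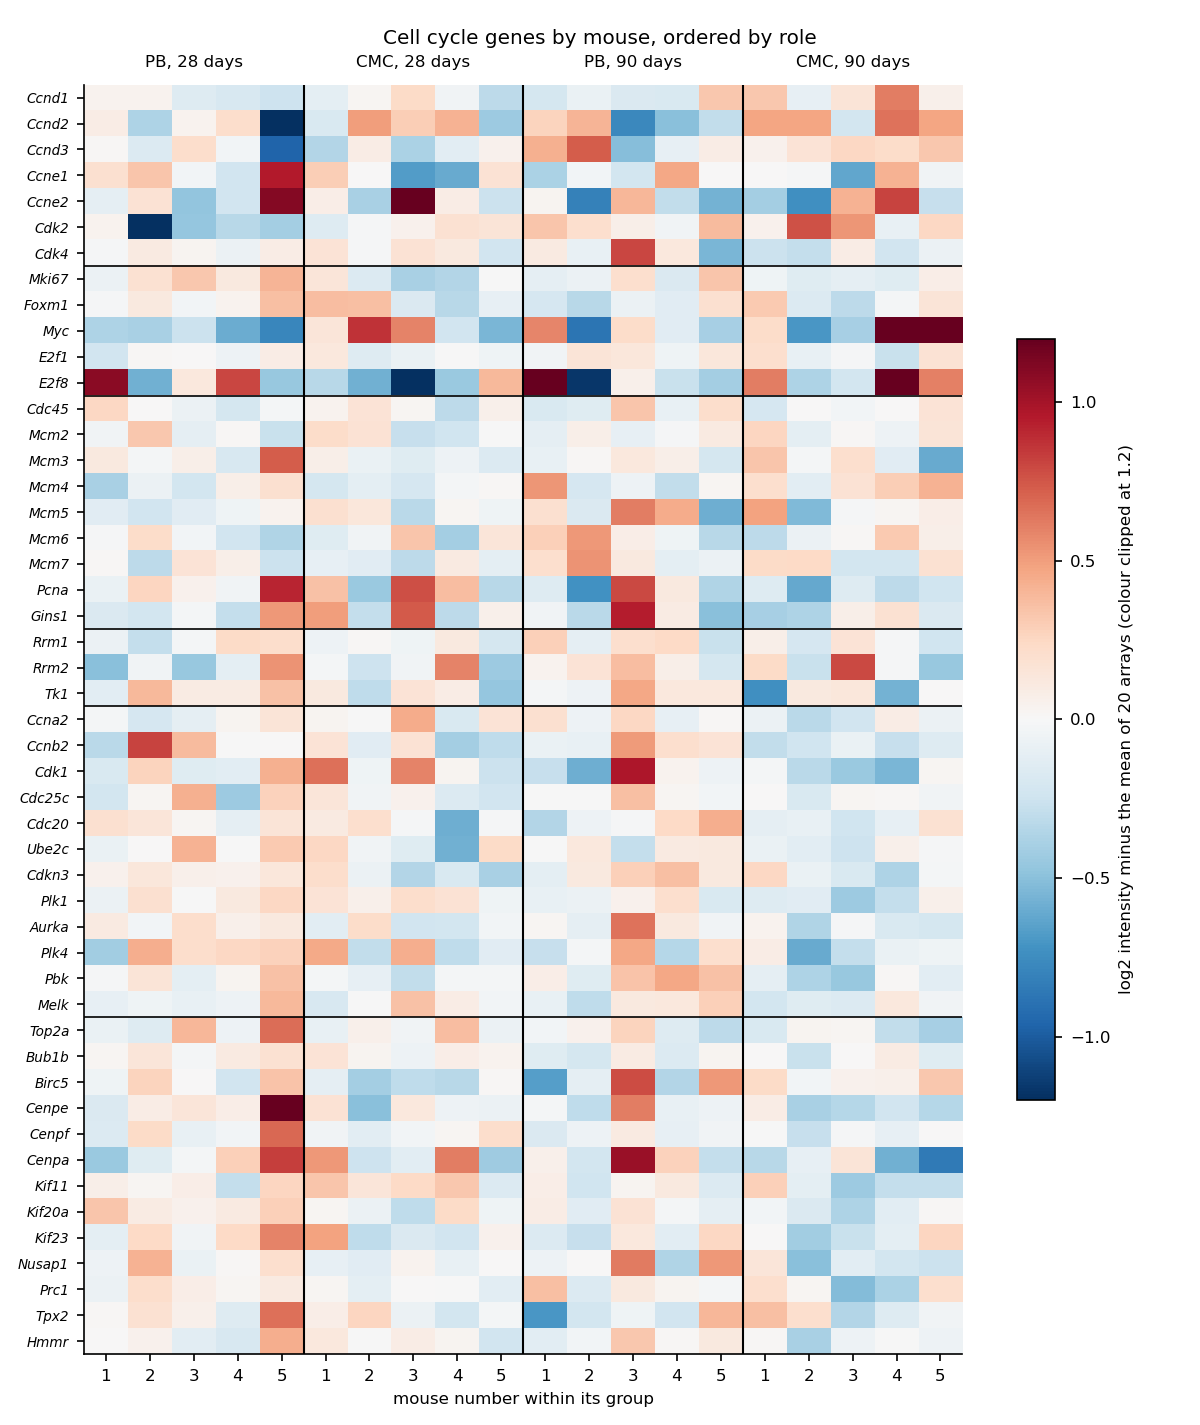
log2 intensity of the 49 tested cell cycle genes minus their mean over 20 arrays, with genes in rows by role and mice in columns by group, red for above and blue for below the mean. The columns of PB 28 days mouse 5 and PB 90 days mouse 3 hold 24 of the 49 row maxima, and the rows of Myc and E2f8, with the largest SD within groups, hold strong colours of both signs.

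The spread between mice of the same group differed among the members. The median SD within groups was 0.25 log2 units for the members and 0.27 for all tested genes, and 19 of 49 members lay above the all-gene median. E2f8 (0.75) and Myc (0.67) stood above the 93rd percentile of all tested genes, and Ccne2 (0.62) and Ccnd2 (0.51) followed. Bub1b (0.11), E2f1 (0.14), Plk1 (0.15) and Kif20a (0.15) were below the 5th percentile.

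The members with several probe sets were 38, and 15 had 1. Among their 73 other probe sets, 50 had the sign of the chosen probe set at 28 days and 47 at 90 days. None of the 126 probe sets was called at either duration when all were tested singly. At 28 days some of the other probe sets had an unadjusted p under 0.05 in limma. Those of Cdc20 (0.30 for each) and Bub1b (0.30) were higher, and those of Ccnd2 (-0.41) and Rrm2 (-0.52) lower. At 90 days other probe sets of Kif23 (0.36 and 0.20), Mcm5 (0.37), Cdk4 (0.42), Top2a (0.41) and Tyms (0.23) were higher at that p. Those of Ccnd1 (-0.65 and -0.81) and Ccnd2 (-0.40 and -0.58) were lower. The means of the Kif23, Mcm5 and Tyms probe sets among these lay below background. Top2a gave 0.13, 0.41 and -0.08 with its 3 probe sets at 90 days.

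The rest of the pathway was described with lists of other genes, also chosen with earlier results of these data known. Of 60 further replication and mitosis genes 53 were tested, with 0 called at either duration, 34 positive at 28 days and 41 at 90 days and medians of 0.05 and 0.12. Stmn1 (stathmin, which takes microtubules apart) was at 7.85, 8.30, 8.67, 8.13 and 7.79 in PB livers against 7.13, 7.83, 7.53, 7.40 and 7.70 in CMC livers at 90 days (0.63 ± 0.22, adjusted p = 0.816). Pttg1 (securin, the guard of sister chromatids) was at 8.67, 9.02, 8.93, 9.20 and 8.92 in PB livers against 8.49, 8.52, 8.63, 8.49 and 8.38 in CMC livers at 90 days, where the groups did not overlap (0.44 ± 0.16, adjusted p = 0.816), but its change at 28 days was -0.04. At 28 days Dtl (a replication-coupled ubiquitin ligase adaptor) gave 0.22 ± 0.11 and Ect2 (which starts the cleavage furrow) 0.40 ± 0.21. The highest Ect2 value of all arrays was in PB 28 days mouse 5 (4.79), and the other treated livers of that group were at 4.02 to 4.54. The highest Stmn1 value, 8.67, was in PB 90 days mouse 3.

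Of 21 cell cycle inhibitors and brakes 20 were tested, with 0 called, beside 0.0498% of all genes at 28 days and 0.143% at 90 days. Gadd45b, a stress-response gene that the constitutive androstane receptor induces in mouse liver, was at 6.23, 6.69, 6.25, 6.65 and 6.49 in PB livers against 6.18, 5.92, 5.77, 6.04 and 6.22 in CMC livers at 28 days, where the groups did not overlap, the lowest PB liver and the highest CMC liver being 6.23 and 6.22 (0.44 ± 0.22, unadjusted p = 0.0631). At 90 days it gave 0.46 ± 0.22 with overlapping groups. Gadd45g gave -1.41 ± 0.69 at 28 days, where the PB livers ranged from 6.10 to 7.05 and the CMC livers from 6.30 to 9.47. Ccng2 (cyclin G2, an inhibitory cyclin) gave 0.81 ± 0.36 at 90 days (unadjusted p = 0.0379), and Cdkn1a (p21, the main Cdk inhibitor downstream of p53) -0.05 ± 0.25 and 0.17 ± 0.25, which were 0.06 and 0.28 without the 2 arrays. Of 22 mitogens and receptors 18 were tested with 0 called, beside the same shares of all genes. Of these 18, 9 were positive at 28 days and 2 at 90 days, and without the 2 arrays 16 and 4 were positive. Tgfbr2, a receptor of the growth inhibitor TGF-beta, gave 0.46 ± 0.25 at 28 days and 0.69 without the 2 arrays (adjusted p = 0.226), Egf 0.19 ± 0.11 at 28 days (0.12 without them), and at 90 days Igf1 (the growth factor made by hepatocytes) gave -0.17 ± 0.09, with groups that did not overlap, and Egfr (the EGF receptor) -1.14 ± 0.69. Egfr was at 8.98 in PB 90 days mouse 3, the other 4 PB livers of that group were at 11.07 to 11.74, and its change was -0.63 without the 2 arrays.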

How the data were processed

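Each array measured the liver RNA of 1 mouse, and the mice were separate animals. The authors deposited log2 intensities from RMA, per the submitters' processing notes, which shrinks differences of dim probe sets; no version was given in the sources used here. They were analysed as deposited. Of 45037 probe sets, 34945 had 1 gene symbol in the platform annotation, 932 several and 9160 none. The probe set with the highest mean stood for each of 18193 genes, of which 16054 passed the filter.

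Limma 3.58.1 (R 4.3.3) fitted a mean per group to the 20 arrays, with eBayes and trend, leaving 16 residual degrees of freedom; it was also tested on simulated data. P-values are two-sided, adjusted by Benjamini and Hochberg over 16054 genes, with calls at an adjusted p under 0.05. Precision is limited by the number of arrays.

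Members and lists were chosen with earlier results of these data known. Values per mouse are given for the 3 members with the smallest p in each of 6 comparisons and for Mki67, Top2a, Cdk1, Ccnd1 and Myc, and for other lists the 2 genes with the smallest p at each duration are named. Pcna, Ccnd2, Cenpe, Cenpa, Birc5, Cdkn1a and the extremes of spread were named after their values were seen. Alternatives changed the filter, the probe set choice, the trend, the weights, the scaling, the block and the arrays used. Promoters are RefSeq windows (GRCm38.p6). Figures used Python 3.11.15 and matplotlib 3.10.9.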

Additional observations from a re-analysis of the deposited data

Results flagged for a closer look

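Among 17 members with values per mouse, or 68 groups of 5, 2 groups held a mouse whose gap to its nearest neighbour was over 0.71 of the range of the group; chance flags about 1 in 20. Ccnd1 was at 7.50 in PB 90 days mouse 5, with the next highest treated liver at 7.10, and without that mouse its change at 90 days was -0.37 rather than -0.27. Pbk was at 3.70 in CMC 28 days mouse 3, with the next lowest vehicle liver at 3.90, at a level below background.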

How the results depend on the processing

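The count of called members was 0 in each of the 6 comparisons without each of the 20 arrays and under the other settings run, which were 11 for 4 comparisons and 10 for the average of both durations and for the difference between them, where a fit of only 2 groups cannot be made. The count over all genes at 28 days was 17 with array weights and 4 with only the 2 groups compared, against 8, and 6 to 10 without single arrays. For PB livers at 90 against 28 days it was 2 with array weights, with cyclic loess and without the 2 arrays, 0 with only the 2 groups compared, against 1, and 1 to 2 without single arrays. At 90 days it was 17 to 26 without single arrays, against 23, and with both durations averaged 26 to 35, against 34. The median change of the members was -0.00 to 0.10 at 28 days and 0.05 to 0.20 at 90 days over the other settings, against 0.05 and 0.11. Each shift was under 0.16, the mean SD within groups of the median member value of an array. That limit is larger than both main medians, so it cannot show them to be stable. Top2a at 28 days turned to -0.015 with array weights and to -0.018 without the 2 arrays, against 0.11, and it ranged from -0.018 to 0.19 without single arrays. Ccnd1 at 28 days ranged from -0.13 to 0.012 without single arrays. The smallest adjusted p of any member named by rule was 0.107 over all these settings, for Pbk averaged over both durations. Pbk had passed the filter through treated livers. The filter at the 50th percentile removed dim members, which then had no value. Replicate numbers were shared by the groups, but same-numbered mice deviated together (r over 0.1) in only 1 of 5 pairs at 28 days and 1 of 5 at 90 days, so the numbers were not taken as pairs. With the replicate block 0 members were called, all genes called were 8, 22 and 29 at 28 days, at 90 days and on average, against 8, 23 and 34, and no call of a member changed. Precision was limited by 5 mice a group and by the dimness of 10 members within 0.5 log2 units of background.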
